A study of Erysimum cheiri and Matthiola incana and Raphanus sativus with 44 samples.

Results

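The phenylpropanoid entry genes are the 8 loci that encode the first 3 enzymes from phenylalanine to 4-coumaroyl-CoA: PAL1 (AT2G37040), PAL2 (AT3G53260), PAL3 (AT5G04230), PAL4 (AT3G10340), C4H (AT2G30490), 4CL1 (AT1G51680), 4CL2 (AT3G21240) and 4CL3 (AT1G65060). They were matched by identifier to 8 of the 34133 Arabidopsis loci in the expression tables of 10 Brassicaceae species, and all 8 are listed for each species. Phenylalanine ammonia-lyase (PAL) removes ammonia from phenylalanine to give cinnamate. Cinnamate 4-hydroxylase (C4H), a cytochrome P450 of the endoplasmic reticulum, then adds a hydroxyl group, and 4-coumarate:CoA ligase (4CL) joins the product to coenzyme A. Flavonoids, anthocyanins, lignin and sinapate esters all draw on this activated acid. In Arabidopsis, PAL1 and PAL2 are known as the main ammonia-lyases, 4CL1 and 4CL2 are linked to lignin, and 4CL3 is linked to flavonoids.

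Petals were collected from partly opened flowers of greenhouse plants, and directional poly(A) RNA-seq libraries were made from 22 forms. The series describes 2 biological replicates a form, so p-values measure the spread between these library pairs. The forms are the codes in the sample titles, and the colour that the labels give for each follows here. Matthiola incana had DP (lavender), LP (modena), RB (pink) and W (white). Raphanus sativus had DP and W (both violet) and LP (white-violet), and Orychophragmus violaceus had P (violet) and W (white-violet). Erysimum cheiri had B (orange), O (pink), and P and Y (both yellow). Malcolmia maritima had LP (violet) and P (white-violet), Iberis amara P (pink) and PI (violet), and Lobularia maritima P (violet) and W (white). Aubrieta x cultorum (PI, pink), Brassica oleracea (Y, yellow) and Eruca (Y, brownness) had a single form each. For Erysimum Y and Eruca Y the labels name each other's organism, and the titles were followed. Erysimum form P was read from the columns with the heading PI, and the Matthiola W columns share a heading, so they are called W libraries a and b.

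Values are FPKM, which divides reads by locus length and library size, so levels of different genes are compared per length. Reads of every species were assigned to Arabidopsis loci, so a low value cannot be told apart from a sequence that differs from Arabidopsis, and levels of different species are set side by side without a test. PAL1 with PAL2, and 4CL1 with 4CL2, are close relatives, and reads could be split between them. Both Aubrieta columns hold identical values and count as 1 library, which leaves 43 of 44. Libraries had between 4910 and 14198 loci above 0. Low values move in steps of whole reads in 7 species, and for a typical locus 1 read added 0.377 FPKM in the deepest Malcolmia library and 10.4 FPKM in the shallowest Raphanus one. Aubrieta, Brassica and Eruca have too few libraries and were not searched for such steps, so their depth is unknown. Some libraries stood apart. Matthiola W summed to 1460588 and 2816588 FPKM, against 598325 to 920687 in the other Matthiola libraries. Raphanus W library 1 summed to 2680218 FPKM, of which 69.2% fell on plastid loci. In Lobularia P library 2 the plastid share was 47.6%, against 1.77% to 8.67% in the other 3. Erysimum P library 2 had 10084 loci above 0, against 12189 to 13106 in the other Erysimum libraries. At least 5 of 6 petal identity genes (AP1, AP3, PI, SEP1, SEP2, SEP3) were above 0 in each Matthiola, Orychophragmus and Raphanus library. In bulk petals, fewer cells of a type and less RNA per cell cannot be told apart.

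PAL1 was the leading ammonia-lyase transcript, with the highest FPKM of the 4 PAL genes in 33 of 43 libraries. It was above 0 in 41 libraries, with a median of 216 FPKM and a maximum of 3554 FPKM in Erysimum O library 1. Erysimum held the highest levels, from 724 to 3554 FPKM over 8 libraries. Malcolmia followed with 266 to 1078 FPKM and Orychophragmus with 307 to 1124 FPKM, and these ranges overlap. Aubrieta had 305 FPKM, Iberis 145 to 417, Matthiola 77.7 to 249, Raphanus 0 to 174 and Lobularia 40.3 to 144. The lowest levels were 20.7 and 23.6 FPKM in Eruca and 9.55 and 0 FPKM in Brassica. In Erysimum PAL1 stood at or above the 99.0th percentile of all loci above 0 in each library.

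**Figure D1:**
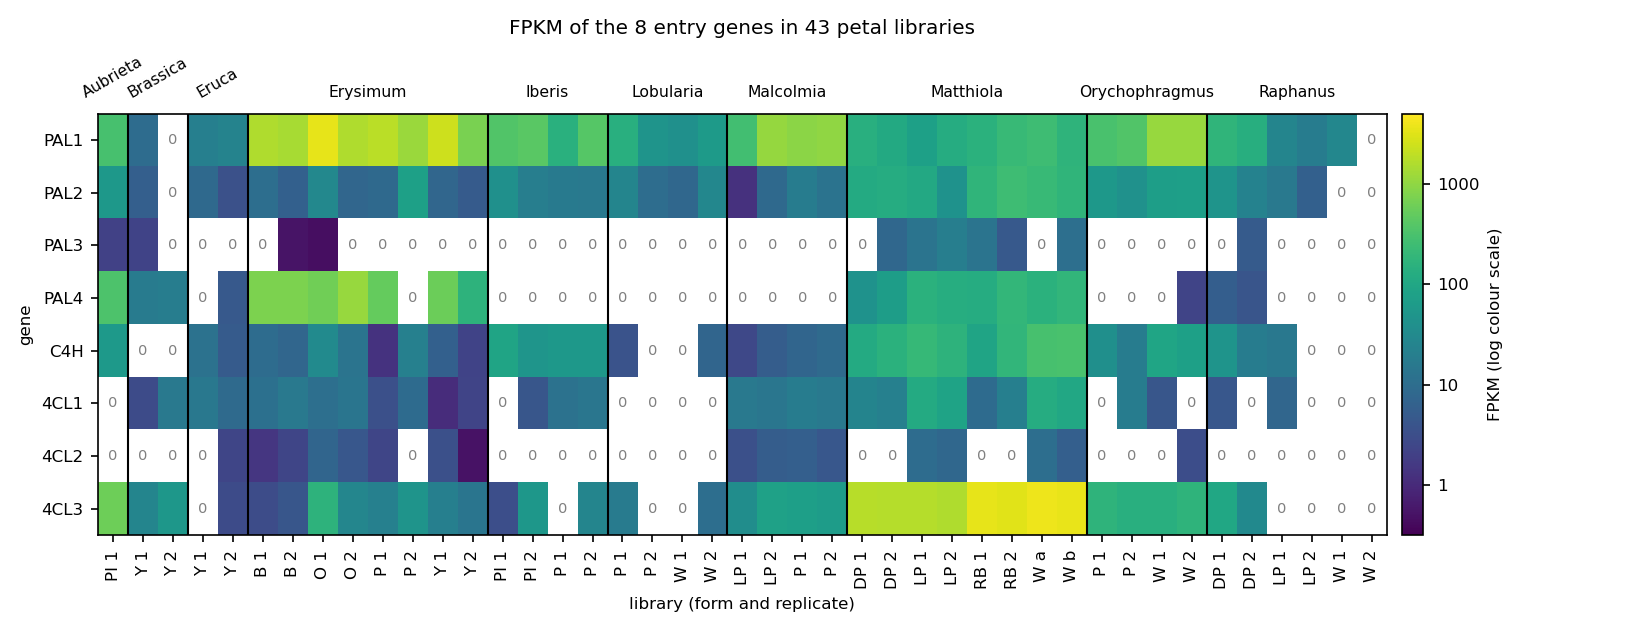
FPKM of the 8 entry genes (vertical axis) in each of 43 libraries (horizontal axis, grouped by species), as colour on a log scale, with 0 written where a gene is listed at 0. PAL1 and 4CL3 hold the brightest cells, and PAL3, PAL4 and 4CL2 are listed at 0 in 32, 21 and 26 libraries.

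The other PAL genes were prominent in a few species each. PAL4 was high in Erysimum, where 7 of 8 libraries lay between 167 and 1138 FPKM and P library 2 was listed at 0. It reached 332 FPKM in Aubrieta, above PAL1 there, and 43.7 to 188 FPKM in Matthiola, but was listed at 0 in all 4 libraries of Iberis, Lobularia and Malcolmia. PAL2 was above 0 in 40 libraries with a median of 18.5 FPKM, and its highest levels were in Matthiola, from 43.2 to 253 FPKM. PAL3, a divergent isozyme in Arabidopsis, never exceeded 19.5 FPKM and was above 0 in 11 libraries.

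Shares of the family sum show the same contrast, and any factor common to a whole library cancels in them. Sequence that differs from Arabidopsis at a single locus, and reads split between close relatives, do not cancel. Shares of different species are therefore also set side by side without a test. For PAL4 no step of whole reads was found, so its shares could not be checked against reads. In the Erysimum P libraries PAL4 held 21.6% and 0% of the sum. PAL1 made up 98.1% to 99.5% of summed PAL FPKM in Malcolmia, 89.7% to 96.1% in Iberis and 84.9% to 94.0% in Orychophragmus. In Matthiola the sum was spread over 3 genes, with 22.1% to 46.4% from PAL1, 13.4% to 39.4% from PAL2 and 14.5% to 43.6% from PAL4. Matthiola LP had the highest PAL4 shares, 43.6% and 41.1%, and DP the lowest, 14.5% and 22.1%. In Brassica PAL4 held 49.8% and 100% of a small sum of 35.4 and 18.9 FPKM.

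**Figure D2:**
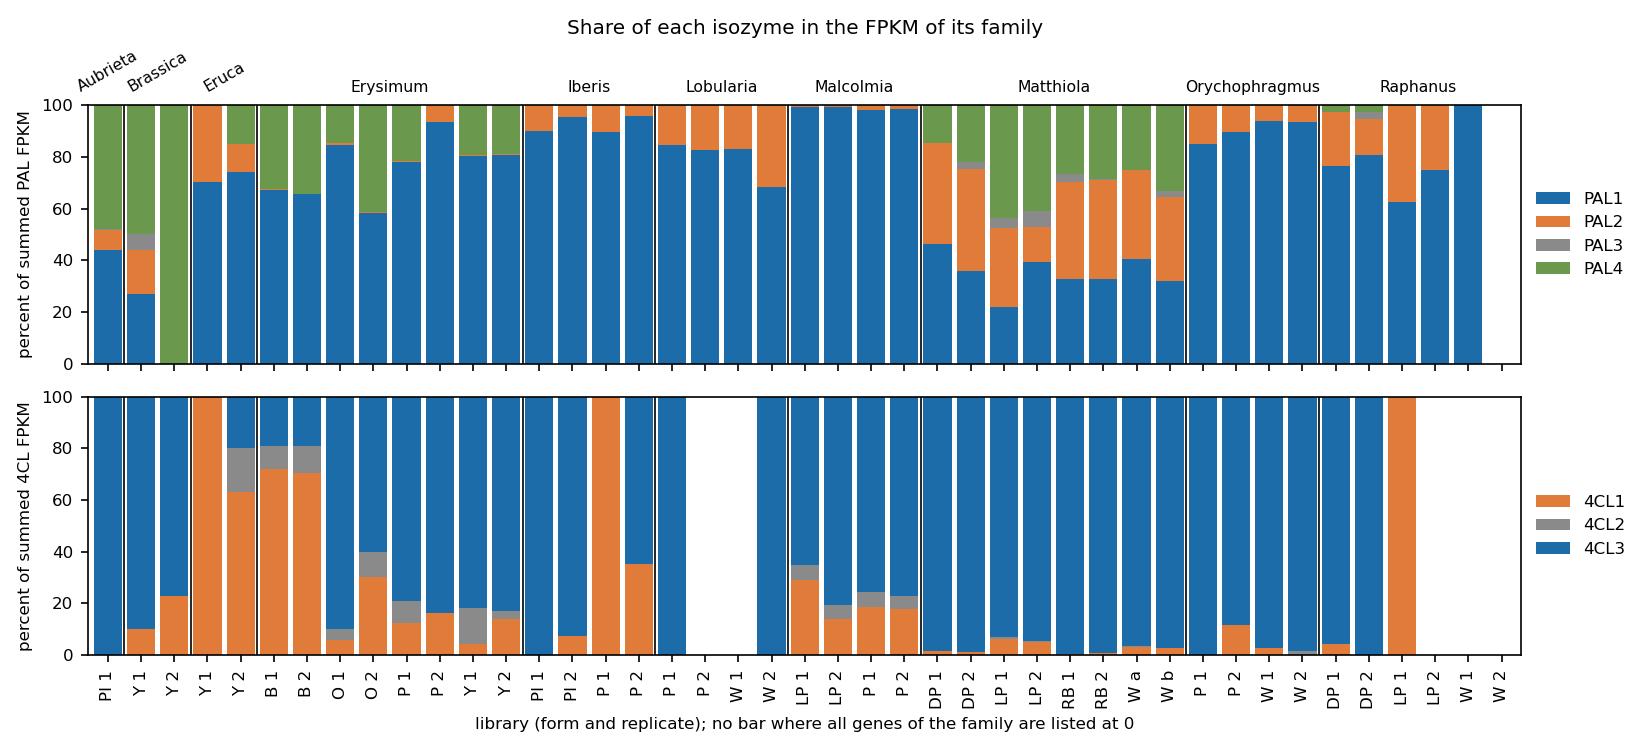
Share of each isozyme in the summed FPKM of its family (vertical axis, percent) for each library (horizontal axis), with PAL above and 4CL below. PAL1 fills most PAL bars outside Matthiola, Aubrieta and Brassica, and 4CL3 fills 93.1% to 99.7% of the 4CL bars in Matthiola.

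C4H, which is encoded by a single gene in Arabidopsis, did not follow the order of PAL1. It was highest in Matthiola, from 89.9 to 313 FPKM, and next in Iberis (49.2 to 89.6), Aubrieta (57.6) and Orychophragmus (18.4 to 91.9). Erysimum, the species with the most PAL1, had 1.32 to 32.7 FPKM of C4H, and Malcolmia had 2.55 to 9.12. Raphanus ranged from 0 to 47.3 FPKM, Eruca from 5.07 to 12.2 and Lobularia from 0 to 7.34, and both Brassica libraries were listed at 0. Summed PAL FPKM divided by C4H FPKM was 1.72 to 5.16 in Matthiola, 2.96 to 8.89 in Iberis and 9.14 to 22.0 in Orychophragmus. The same quotient was 105 to 199.5 in Malcolmia and 57.6 to 1783 in Erysimum. The upper end in Erysimum came from P library 1, where C4H was estimated at 2 reads.

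4CL3 was the leading ligase transcript, highest of the 3 genes in 32 of the 38 libraries in which any 4CL gene was above 0. Its level in Matthiola, from 1594 to 3953 FPKM, lay above every other library of the series, the next being 589 FPKM in Aubrieta. Orychophragmus held 141 to 172 FPKM, Malcolmia 35.8 to 81.0 and Erysimum 3.0 to 164. Raphanus ranged from 0 to 100.5 FPKM, Iberis from 0 to 53.7, Brassica from 25.4 to 53.1, Lobularia from 0 to 17.3 and Eruca from 0 to 2.85. 4CL1 was highest in the other 6 libraries, among them Eruca (15.0 and 9.07 FPKM) and Erysimum B (11.4 and 15.7 FPKM). In Erysimum B 4CL1 made up 71.8% and 70.6% of summed 4CL FPKM, while the other Erysimum libraries had 4.38% to 30.1%. 4CL2 never exceeded 10.6 FPKM and was listed at 0 in 26 libraries.

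Forms of a species, as coded in the titles, were then compared to ask which entry genes differ between them. Some compared forms carry the same colour label, namely Raphanus DP and W, and Erysimum P and Y. The test was limma on log2(FPKM + 1), and a call means a Benjamini-Hochberg adjusted p below 0.05 over every locus tested in the contrast. Of 152 gene-by-contrast pairs in 19 contrasts, 133 had enough signal to be tested, 11 were called and 122 did not pass. Matthiola gave 7 of the calls, Raphanus 3 and Orychophragmus 1. The share of all tested loci that were called ran from 0% in Iberis and Lobularia to 10.8% in Raphanus W against DP. It is given for each contrast below. 4CL3 accounted for 6 calls and 4CL1 for 3, and PAL1 and PAL2 were called in 1 contrast each. PAL3, PAL4, C4H and 4CL2 were called in 0 contrasts by limma, of the 9, 16, 19 and 14 that tested them. Contrasts of the same species share libraries, so their calls are not independent. Where both libraries of a form are listed at 0, that pair adds a spread of 0 to the fit, and the p-value can be too small.

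**Figure D3:**
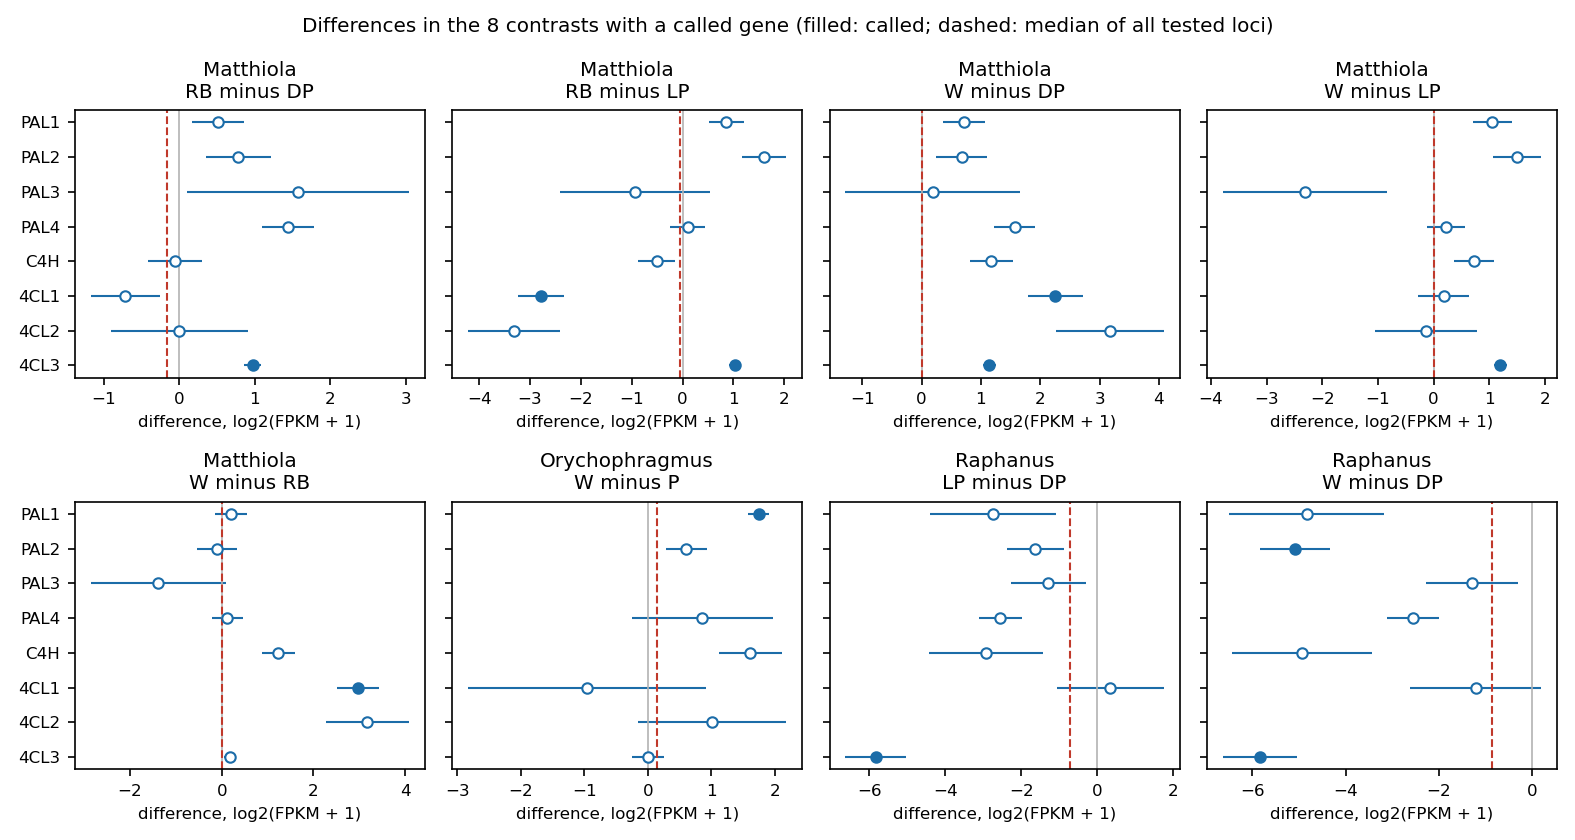
Difference between forms on the log2(FPKM + 1) scale (horizontal axis) of the entry genes (vertical axis) in the 8 contrasts with a called gene, with standard error bars. Filled points were called and the dashed line is the median of all tested loci; values for Raphanus genes listed at 0 in LP or W depend on the added 1.

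In Matthiola the ligases separated the forms, and 4CL1 and 4CL3 did so in different patterns. 4CL3 was 1742 and 1701 FPKM in the DP libraries, 1724 and 1594 in LP, 3548 and 3220.3 in RB, and 3953 and 3667 in W. RB and W therefore sat above DP and LP with no overlap. In RB 4CL3 rose by 0.97 (SE 0.11) on the log2(FPKM + 1) scale against DP and by 1.03 (SE 0.11) against LP (limma, adjusted p = 0.0224 and 0.0142). Of all tested loci 0.84% were called between RB and DP and 0.726% between RB and LP, where 1 and 2 of the 8 entry genes were called. With quantile scaling these rises were 0.89 and 0.99 (adjusted p = 0.0426 and 0.0249). Both calls were lost when either RB library was left out (adjusted p from 0.057 to 0.0757) and without W library b, and the RB to DP call also without either LP library (adjusted p = 0.0553 and 0.0557).

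The level of 4CL3 in form W depended on how the libraries were scaled. On deposited FPKM it rose by 1.14 (SE 0.11) against DP and 1.20 (SE 0.11) against LP (limma, adjusted p = 0.01 and 0.015), whereas with quantile scaling the differences were -0.06 and 0.04 and neither was called. Against RB, 4CL3 differed by 0.17 (adjusted p = 0.467), while with quantile scaling it was lower in W by 0.95 on the log2 scale (adjusted p = 0.0112) and with recovered reads it was higher by 0.28 (voom, adjusted p = 0.0216, in a fit that called 18.8% of its loci). Actin ACT2, a gene used in every cell, moved in the same direction: 1647 and 1596 FPKM in DP against 5576 and 4494 in W, a rise of 1.63 that quantile scaling reduced to 0.50 without a call. Of 5 such genes, 2 rose in W against DP, 3 against LP and 4 against RB. With quantile scaling none of the 5 was called higher. Called loci in W against DP were 215 higher and 133 lower (2.66% of tested loci, with 2 of 8 entry genes called), and 52 higher and 154 lower with quantile scaling. Between W and LP 115 were higher and 59 lower (1.33%, with 1 of 8 entry genes called), and 24 higher and 94 lower with quantile scaling. The call against DP was lost without either RB library (adjusted p = 0.0568 for both), and that against LP without DP library 2 (adjusted p = 0.0508) or either RB library (adjusted p = 0.0874 and 0.0888).

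4CL1 divided the same forms differently, with LP and W high and DP and RB low. Its DP libraries had 24.9 and 21.6 FPKM, its LP libraries 118 and 86.0, its RB libraries 9.24 and 20.4, and its W libraries 128 and 103. In RB it fell by 2.78 (SE 0.46) on the log2 scale against LP (limma, adjusted p = 0.0477). In W it rose by 2.26 (SE 0.46) against DP and by 2.97 (SE 0.46) against RB (limma, adjusted p = 0.0491 and 0.0122), and quantile scaling kept these directions with values of 2.15 and 2.58. The RB level rests on 2 and 4 estimated reads, the DP level on 7 and 10. Of all tested loci 7.1% were called between W and RB, 615 higher and 314 lower in W (348 and 443 with quantile scaling), and 1 of 8 entry genes was called. LP had more 4CL1 than DP by 2.07 (SE 0.46) without a call (limma, adjusted p = 0.184), and 0 of 8 entry genes were called there, against 0.229% of all loci. In that contrast 3 entry genes had an unadjusted p under 0.05, and voom on recovered reads called 1, namely 4CL1 (adjusted p = 0.00132), and 3.5% of its loci. The calls of 4CL1 against LP and DP were lost in 13 of 15 and 12 of 14 alternatives, including each library left out, and W against RB was lost without either DP library (adjusted p = 0.0543 and 0.0517) or W library a (adjusted p = 0.0604).

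4CL2 was seen in the forms with high 4CL1 and was listed at 0 in the others. It was 9.78 and 8.11 FPKM in LP and 10.6 and 6.01 in W, against 0 in the 4 libraries of DP and RB. These levels correspond to between 2 and 4 estimated reads, and 3 reads would give 11.1 and 6.72 FPKM in DP and 14.4 and 15.9 in RB. Levels like those of LP and W were thus not detectable in 3 of these 4 libraries, and 4CL2 was not called in the contrasts between these forms (limma, adjusted p from 0.0813 to 0.269). As a share of summed 4CL FPKM on the deposited scale, 4CL1 held 6.37% and 5.1% in LP, 3.12% and 2.72% in W, 1.41% and 1.26% in DP, and 0.26% and 0.63% in RB.

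**Figure D4:**
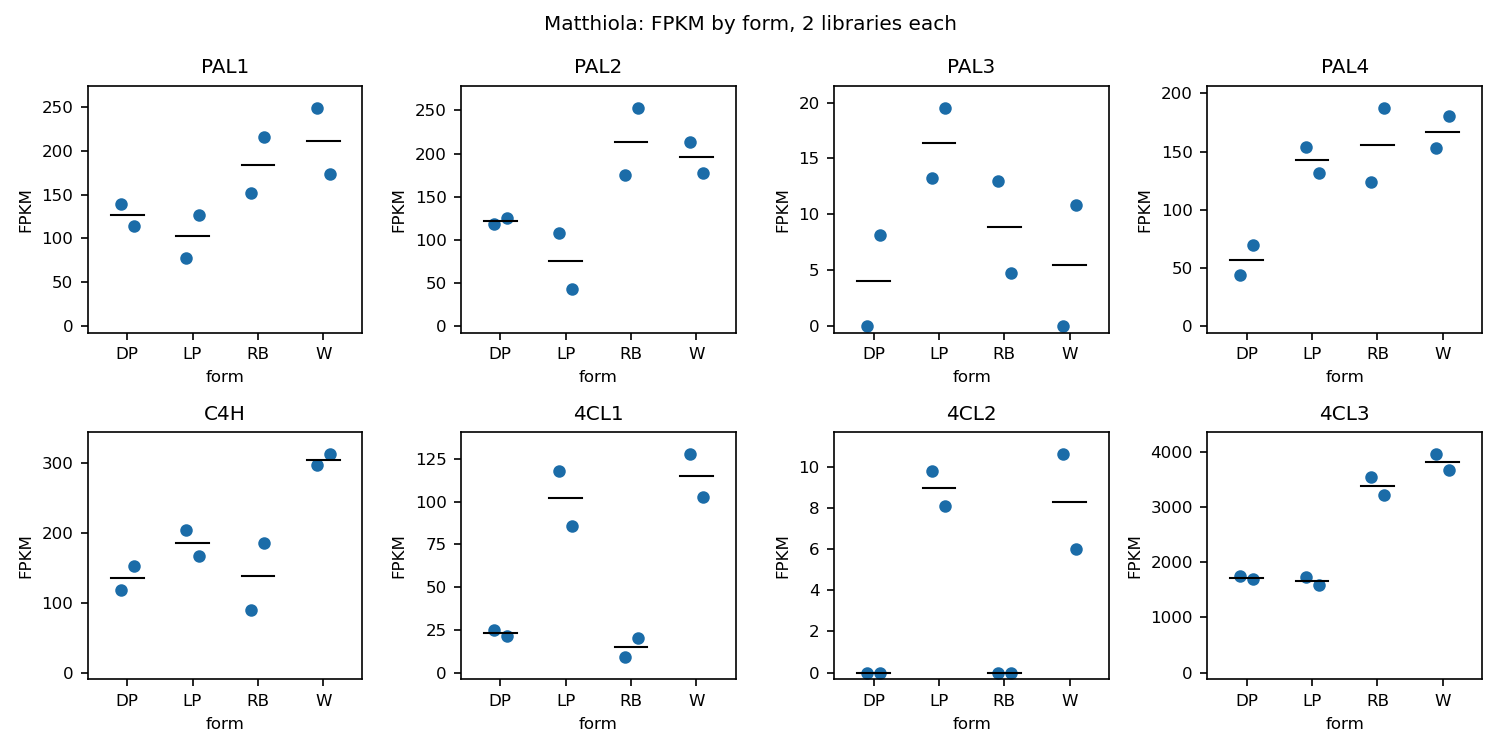
FPKM (vertical axis) of the 8 entry genes in the 4 Matthiola forms (horizontal axis), with 2 libraries a form as points and the mean as a bar. 4CL1 is high in LP and W and 4CL3 in RB and W, where W levels of 4CL3 shift with the scaling, and 4CL2 is listed at 0 in DP and RB and rests on 2 to 4 reads elsewhere.

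PAL and C4H of Matthiola did not pass the test in any of the 6 contrasts. C4H was 118 and 153 FPKM in DP, 205 and 167 in LP, 89.9 and 186 in RB, and 297 and 313 in W, the W libraries being above all others. The difference of W from RB was 1.23 (SE 0.36, limma adjusted p = 0.0876) and from DP 1.18 (adjusted p = 0.139), and voom on recovered reads called C4H higher in W against RB, DP and LP (adjusted p = 0.00118, 0.000705 and 0.016), where it called 18.8%, 18.1% and 16.5% of its loci. With quantile scaling these differences of C4H were 0.87, 0.81 and 0.35 without a call. PAL4 was lowest in DP, with 43.7 and 70.1 FPKM against 124 to 188 in the other 6 libraries, and came nearest to a call against W (difference 1.57, SE 0.34, limma adjusted p = 0.0583). PAL1 and PAL2 had their lowest form means in LP, with 77.7 and 127 FPKM of PAL1 and 108 and 43.2 FPKM of PAL2, and the PAL1 range overlaps that of DP (140 and 114 FPKM). W had 249 and 174 FPKM of PAL1 and 214 and 178 of PAL2, and RB had 152 and 216 of PAL1 and 175 and 253 of PAL2. Voom on recovered reads called both genes higher in W than in LP (adjusted p = 0.00452 and 0.000348), and PAL2 higher in RB than in LP (adjusted p = 0.00307), where it called 1.84% of its loci. With quantile scaling PAL1 and PAL2 differed between W and LP by 0.76 and 1.22 without a call. PAL3 was 13.3 and 19.5 FPKM in the LP libraries, above those of DP (0 to 8.12), RB (4.77 to 13.0) and W (0 to 10.8). These differences of LP were not called (limma, adjusted p from 0.535 to 0.878). The gap between LP and RB is smaller than 1 read of a typical locus, which added 5.45 and 6.0 FPKM in the RB libraries. DP, RB and W overlapped in PAL3.

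Genes around the entry steps were called beside the ligases in some Matthiola contrasts. Of all loci 0.145% were higher and 0.695% lower in RB against DP, 1.64% and 1.02% in W against DP, 0.879% and 0.451% in W against LP, and 4.7% and 2.4% in W against RB. ADT5, an arogenate dehydratase that makes phenylalanine, was 20.1 and 21.9 FPKM in DP, 120 and 121 in RB and 456 and 352 in W, and rose by 2.47 in RB and 4.19 in W against DP (limma, adjusted p = 0.0224 and 0.00355). It was the called gene with the largest rise among 15 supply genes, of which 14 were tested and 1 and 2 rose in these contrasts. ADT5 was also called higher in LP than in DP, and in W than in RB by 1.72 (limma, adjusted p = 0.0175). MSBP1, a membrane scaffold that holds C4H in Arabidopsis, rose in W against DP, LP and RB by 1.41, 1.49 and 1.42, which quantile scaling reduced to between 0.38 and 0.56 without a call. It was the 1 of 4 C4H partners that rose. MYB58, a regulator of lignin genes in Arabidopsis, was 9.49 and 24.6 FPKM in W against 124 to 218 in RB, and fell in W against DP, LP and RB by 3.04, 3.43 and 3.34 on the log2 scale (adjusted p = 0.0243, 0.028 and 0.0097), the 1 of 6 tested regulators to do so. Kelch F-box proteins, which mark PAL for degradation in Arabidopsis, and CoA ligases related to 4CL had 2 tested members each. Limma called 0 of either list in the 6 Matthiola contrasts, with at most 1 of each at an unadjusted p under 0.05 in any contrast.

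Of the flavonoid branch of 12 genes in Matthiola, 11 were tested. Between RB and DP limma called 0 of them, with a median of -0.02, and 0 of the 13 lignin and sinapate genes, with a median of -0.04. In the same contrast 2 flavonoid and 3 lignin and sinapate genes had an unadjusted p under 0.05, and voom on recovered reads called 0 in either list. Between RB and LP 3 rose and 0 fell, with a median of 1.08 against -0.06 for all loci, of which 0.214% were higher and 0.512% lower, and F3H, flavanone 3-hydroxylase, rose most, from 14.9 and 16.5 to 199 and 323 FPKM. In W 2 rose and 1 fell against DP, 3 rose and 0 fell against LP, and 3 rose and 1 fell against RB. The largest rises were UGT78D2, a flavonoid glucosyltransferase, by 1.94 against DP and 2.58 against LP, and TT19, a glutathione transferase needed for anthocyanin, by 2.04 against RB. LDOX, the leucoanthocyanidin dioxygenase, fell by 1.71 in W against DP and RB. The medians were 0.00, 1.57 and 0.00, against 0.00 for all loci. With quantile scaling the flavonoid counts in W were 0 up and 1 down, 2 up and 0 down, and 1 up and 1 down.

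All 13 lignin and sinapate genes were tested in Matthiola. CCR2, a cinnamoyl-CoA reductase, was listed at 0 in both libraries of RB and of W, against 47.8 and 119 FPKM in LP and 30.2 and 18.0 in DP, and it fell in RB and in W against LP and in W against DP (adjusted p = 0.0228, 0.0236 and 0.0368). CCR1 rose in W by 2.01 against DP and 2.57 against RB. Counts in this list were 0 up and 3 down for RB against LP, and 3 up and 1 down, 0 up and 2 down, and 3 up and 0 down for W against DP, LP and RB. With quantile scaling those for W were 0 up and 1 down, 0 up and 2 down, and 2 up and 1 down. The 1 gene down against DP there was not CCR2, which was not called (limma, adjusted p = 0.0538). Of 3 genes of green tissue, 1, 1 and 2 rose in W, with RCA at 1470 and 1235 FPKM in W and 447 and 462 in DP, and the petal gene SEP3 rose against DP and RB. With quantile scaling SEP3 (0.77 and 0.36) and RCA against DP (0.89) were not called, and 1 of 6 petal identity genes was lower in W in each contrast. LHCA2, a light-harvesting protein gene, rose most against RB, by 3.38. The summed green tissue level was 1638 and 2009 FPKM in W and 444 to 847 in the other forms, and its part in the results for W was not tested.

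In Orychophragmus PAL1 separated form W from form P. Its P libraries had 307 and 362 FPKM and its W libraries 1124 and 1114, with 79 and 86 against 390 and 474 estimated reads, and the forms do not overlap. PAL1 rose in W by 1.74 (SE 0.16) on the log2 scale (limma, adjusted p = 0.0263), against a median of 0.15 over all tested loci, and by 1.28 with quantile scaling (adjusted p = 0.0289). It was the 1 called gene of 7 tested entry genes, in a contrast that called 4.94% of all loci. The call was lost without P library 1 (adjusted p = 0.0661) and without either W library (adjusted p = 0.105 and 0.106), and in a fit without a variance trend (adjusted p = 0.146), which called 0 loci, with differences from 1.63 to 1.75.

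The other entry genes of Orychophragmus did not pass the test. C4H was 39.5 and 18.4 FPKM in P and 91.9 and 78.4 in W, a difference of 1.62 (SE 0.49, limma adjusted p = 0.144), and voom on recovered reads called it (adjusted p = 0.0141) together with 32.4% of its loci. PAL2 was 54.6 and 42.3 FPKM in P and 72.2 and 75.2 in W (adjusted p = 0.366). 4CL3 differed by less than the spread of its libraries, with 169 and 143 FPKM in P and 141 and 172 in W, a difference of 0.00 with an SE of 0.25. 4CL1, 4CL2 and PAL4 were each listed at 0 in at least 2 of 4 libraries and rest on between 1 and 3 reads where reads were recovered.

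Neighbouring pathway genes of Orychophragmus gave the following counts in W against P. Of all loci 3.28% rose and 1.66% fell, or 318 and 272 loci with quantile scaling in place of 434 and 219. Of 12 flavonoid genes 5 rose and 0 fell, and CHI, chalcone isomerase, was 27.6 and 45.2 FPKM in W and listed at 0 in both P libraries. ADT1, an arogenate dehydratase, rose by 3.21 from 24.8 and 26.9 to 234 and 262 FPKM, the 1 of 13 tested supply genes that rose. Of 11 tested lignin and sinapate genes, CCOAOMT1, caffeoyl-CoA methyltransferase, rose by 3.86 from 1177 and 709 to 12858 and 13649 FPKM, and OMT1, a caffeate and flavonol methyltransferase, fell by 1.76. The petal genes PI and AP3 moved in opposite directions, by 1.40 and -1.36, but with quantile scaling PI (0.87, adjusted p = 0.0642) was not called and 2 of 6 petal genes fell, and GAPC1, a gene used in every cell, fell by 1.94 on the log2 scale. Summed FPKM of 2 pollen markers was 713 and 634 in W and 30.3 and 0 in P, and the part of this in the result for PAL1 was not tested.

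In Raphanus PAL1, PAL2, C4H and 4CL3 had their highest levels in form DP, and few of these differences passed the test. The DP libraries had 174 and 134 FPKM of PAL1, the LP libraries 26.0 and 18.7 and the W libraries 27.9 and 0, where the LP and W levels rest on 0 to 5 reads. The DP libraries were above all others, yet PAL1 did not pass the test in LP or W against DP (limma, adjusted p = 0.485 and 0.173), and voom on recovered reads called both (adjusted p = 0.0175 and 0.0051), among 26.5% and 28.6% of its loci. Without W library 1 the call was made for W against DP (adjusted p = 0.0277), and without either W library for LP against DP (adjusted p = 0.0424 and 0.0402), in fits that called 12.9% to 13.6% of all loci. PAL2 was 47.5 and 23.1 FPKM in DP, 15.6 and 6.25 in LP, and listed at 0 in both W libraries.

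PAL2 and 4CL3 were the genes called in Raphanus. PAL2 fell in W against DP (limma, adjusted p = 0.0277), and 3 reads of PAL2 would give 21.0 and 20.9 FPKM in the W libraries, just under the lower DP value. 4CL3 was 100.5 and 31.3 FPKM in DP, from 25 and 11 estimated reads, and listed at 0 in the 4 libraries of LP and W. It fell in LP and in W against DP (limma, adjusted p = 0.0314 and 0.0257), and 3 reads would give 21.1 and 25.3 FPKM in LP and 28.4 and 28.2 in W. Those contrasts called 1 and 2 of 7 tested entry genes, against 8% and 10.8% of all tested loci (3.07% higher and 4.93% lower in LP, 3.69% higher and 7.07% lower in W). No fold is given against libraries at 0. Pairs of libraries at 0 add a spread of 0 to the fit, so the p-values of these 4CL3 and PAL2 calls can be too small.

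C4H and the rarer genes of Raphanus did not pass the test. The DP libraries had 47.3 and 18.3 FPKM of C4H, the LP libraries 15.1 and 0 and the W libraries none, and 3 reads would give 30.4 and 30.2 FPKM in W, so the lower DP value would not be detectable there. Voom on recovered reads called C4H in W against DP (adjusted p = 0.0316). PAL4 was 5.77 and 4.08 FPKM in DP and listed at 0 in LP and W (limma, adjusted p = 0.0688 and 0.0602). PAL3 was 4.99 FPKM in DP library 2 alone, 4CL1 was above 0 in LP library 1 (7.66 FPKM) and DP library 1 (4.36 FPKM), and 4CL2 was listed at 0 in all 6 libraries. Between W and LP 0 of 7 tested entry genes were called by limma and 0 of 4 by voom, 1 had an unadjusted p under 0.05, and 2.56% of all loci were called. The calls of 4CL3 in LP were lost without either LP library (adjusted p = 0.0599 and 0.0641), those of 4CL3 and PAL2 in W without either W library (adjusted p from 0.058 to 0.0662), and that of PAL2 also without DP library 1 (adjusted p = 0.0586). With quantile scaling 4CL3 in LP (adjusted p = 0.0538) and PAL2 in W (adjusted p = 0.0502) were not called, while 4CL3 in W was (adjusted p = 0.044).

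**Figure D5:**
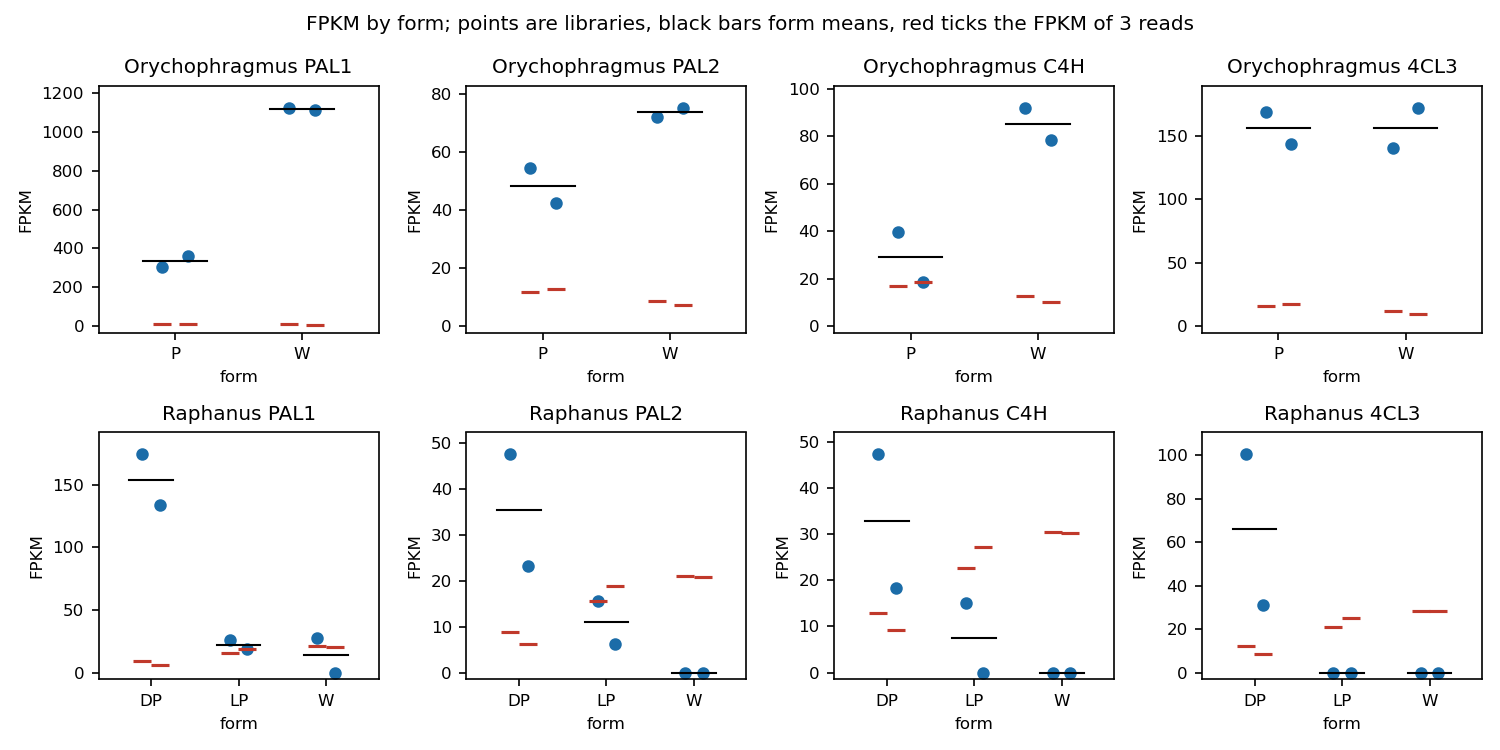
FPKM (vertical axis) of PAL1, PAL2, C4H and 4CL3 by form (horizontal axis) in Orychophragmus and Raphanus, with libraries as points, the mean as a black bar and the FPKM worth of 3 reads in each library as a red tick. PAL1 of Orychophragmus separates W from P far above the ticks, while most LP and W points of Raphanus lie at or below them.

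The differences of the entry genes in Raphanus came with a general shift and with markers of other organs. The median of all loci was -0.72 in LP and -0.86 in W against DP, and -0.17 and -0.29 with quantile scaling, under which called loci were 224 higher and 147 lower in LP and 305 higher and 335 lower in W. No median is given for the entry or flavonoid genes, since it would rest on genes listed at 0. Of 12 flavonoid genes, 5 fell in LP and 11 in W against DP and 0 rose (4 and 10 with quantile scaling). TT19 was 5997 and 3972 FPKM in DP and listed at 0 in both W libraries, and UGT75C1, an anthocyanin glucosyltransferase, was 38.1 and 10.1 FPKM in DP and listed at 0 in LP. Of 12 tested lignin and sinapate genes, 1 rose and 1 fell in LP (CAD4 and UGT84A2), and 1 rose and 4 fell in W. In W HCT rose, and CCOAOMT1 fell most, from 699 and 555 FPKM to a listing of 0. With quantile scaling 0 rose and 0 fell in LP, and 0 rose and 2 fell in W. For a typical locus 1 read added 7.78 and 9.32 FPKM in LP and 10.4 in each W library. HCT was 10.6 FPKM in each W library and CAD4 17.7 and 10.6 in LP, so both rises rest on few reads if these loci are typical. UGT84A2 was 8.77 and 6.20 FPKM in DP, a level that could go undetected in LP. MYB4, a repressor of C4H in Arabidopsis, was 63.5 and 18.0 FPKM in DP and listed at 0 in W. Of 12 tested supply genes CM3 alone fell in W, which was not called with quantile scaling (limma, adjusted p = 0.178). CM3 was 6.51 and 13.8 FPKM in DP and listed at 0 in W, where 1 read added 10.4 FPKM for a typical locus. Such a level could go undetected in W, as could the lower DP value of MYB4, and that of UGT75C1 in LP.

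Organ markers of Raphanus differed between the same forms. Summed FPKM of 2 pollen markers was lowest in DP (78.6 and 142), then 791 and 807 in LP, and highest in W (4595 and 4194), and VGD1 rose in LP and PPME1 most in W. Summed FPKM of 3 carpel and ovule markers was 0 in both DP libraries, 43.2 and 10.9 in LP and 45.3 and 49.8 in W. AG was called in LP and AG and SHP1 in W, but with quantile scaling 0 of 3 in either. AG was 27.3 and 10.9 FPKM in LP, and SHP1 33.1 and 16.4 in W. For a typical locus 1 read added 7.78 and 9.32 FPKM in LP and 10.4 in each W library. These carpel and ovule levels thus rest on few reads. Summed petal identity genes were 6511 and 6788 FPKM in DP and 1808 to 2921 in LP and W, where 3 and 4 of 6 fell, PI most, and RCA fell in W. With quantile scaling 1 and 2 of 6 petal genes fell, and PI in LP was not called (adjusted p = 0.0582). Tapetum markers were listed at 0 in all 6 libraries. The part of these differences in the results for PAL2 and 4CL3 was not tested. ACT2 rose by 1.14 in LP, UBQ10 fell by 2.81 in LP and GAPC1 fell by 3.33 in W on the log2 scale.

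In Erysimum 0 of 42 member tests in 6 contrasts were called by limma, and 4 had an unadjusted p under 0.05. Voom on recovered reads called 0 of 36. The background was also low, with 0.0135% of loci called between O and B, 0.00676% between P and B, 0.0135% between P and O, 0.0203% between Y and B, 0.0203% between Y and O, and 0.027% between Y and P. PAL1 was 1558 and 1429 FPKM in B, 3554 and 1612 in O, 1838 and 1167 in P, and 2388 and 724 in Y, so the spread within O, P and Y was wide. 4CL3 was lowest in B, with 3.0 and 4.22 FPKM against 13.7 to 164 in the other 6 libraries, and its difference between O and B was 3.88 (SE 0.90, limma adjusted p = 1).

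4CL1 of Erysimum was lowest in Y. It was 1.08 and 2.28 FPKM in Y, 3.35 and 9.45 in P, 10.7 and 13.3 in O, and 11.4 and 15.7 in B, and Y differed from B by -2.46 (SE 0.71, limma adjusted p = 0.746). C4H was 9.62 and 7.75 FPKM in B, 32.7 and 13.1 in O, 1.32 and 21.6 in P, and 6.19 and 2.25 in Y. P library 2 decided several values: PAL4 was 508 FPKM in P library 1 and listed at 0 in P library 2. With P library 1 left out, 4 tests were called, namely PAL4 in P against B and O and in Y against P (adjusted p = 0.00412, 0.00405 and 0.00612), and 4CL1 in Y against P (adjusted p = 0.0381). Those contrasts then called 35.4%, 34.4% and 34.2% of all loci, so the calls say nothing particular about PAL4 or 4CL1. With P library 2 left out, PAL4 in Y against P was -0.71, in place of 3.78.

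In Malcolmia 0 of 6 tested entry genes were called by limma between P and LP, and 0 had an unadjusted p under 0.05, in a contrast that called 4.09% of all loci. That share depended on the setting, with 356 loci called higher and 170 lower in P. A pseudocount of 0.1, no filter or quantile scaling left 1 higher and 1 lower, and no variance trend left 0 and 1. With a block for the replicate number 576 were higher and 315 lower. PAL1 was 266 and 1078 FPKM in LP and 932 and 1006 in P, so LP library 1 stood apart from the other 3. PAL1 was called without LP library 2 (1.86, adjusted p = 0.0423, with 7.68% of all loci called), and its difference turned to -0.15 without LP library 1. PAL2 was 1.26 and 8.65 FPKM in LP and 18.5 and 12.7 in P, a difference of 1.81 (SE 0.74, limma adjusted p = 0.161) that voom on recovered reads called (adjusted p = 0.0427) among 16.4% of its loci. C4H was 2.55 and 5.45 FPKM in LP and 7.42 and 9.12 in P (adjusted p = 0.209), and 4CL1, 4CL2 and 4CL3 overlapped between the forms.

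Iberis and Lobularia gave 0 called entry genes by limma or voom, of 5 and 4 tested by limma, and 0 with an unadjusted p under 0.05. Of all loci 0% were called in either species by limma, 580 and 374 had an unadjusted p under 0.05, and voom on recovered reads called 4 and 0. PAL1 in Iberis was 145 and 385 FPKM in P and 367 and 417 in PI, and C4H was 54.5 and 55.2 in P and 89.6 and 49.2 in PI. 4CL1 was 12.3 and 14.0 FPKM in P and 0 and 4.16 in PI, a difference of -2.64 (SE 1.27, limma adjusted p = 0.76) that rests on 0 to 3 reads. In Lobularia PAL1 was 144 and 47.2 FPKM in P and 40.3 and 60.6 in W, PAL2 was 25.8 and 9.98 in P and 8.10 and 27.9 in W, and C4H and 4CL3 were each at 0 in 1 library of either form.

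Of the 5 loci whose pattern over forms was most like that of C4H, 3 belong to the flavonoid branch. The measure was Pearson's correlation of log2(mean FPKM + 1) after the species mean was subtracted, over 19 forms of 7 species, among 5134 loci seen in all 7. TT19 came first (r = 0.93), then UGT78D2 (r = 0.93), AT5G16980 (r = 0.92), another locus without a name here and CHS, chalcone synthase (r = 0.90). PAL2 ranked 21st (r = 0.86), PAL1 77th (r = 0.80) and 4CL3 228th (r = 0.70). For PAL1 the first 5 loci had no name here, led by AT3G23790 (r = 0.89), with 4CL3 ranked 29th (r = 0.82) and C4H 46th (r = 0.80). AP1 came directly after C4H, at 47th (r = 0.80). These correlations are descriptions: forms share libraries' depth and scaling, and the Raphanus forms with values at 0 weigh on them.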

How the data were processed

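Petal RNA-seq values were analysed as deposited by the authors: FPKM per library for 34133 Arabidopsis loci (34131 in the Brassica table). Arabidopsis served as the reference for every species, per the series design text. The submitters' processing notes name TopHat, Cufflinks, Cuffdiff and DESeq without versions. The genome build is not given in the sources used here. The 3 entries that are not loci were left out.

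For the 7 species with more than 1 form, log2(FPKM + 1) was modelled by limma 3.58.1 in R 4.3.3. All forms of a species entered 1 fit with a mean-variance trend, and p-values were adjusted over tested loci by Benjamini-Hochberg. Loci whose mean reached 1 FPKM in any form were tested. Adding 1 understates changes of low genes. Species were never fitted together.

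FPKM is not a count. Whole reads were recovered by finding, for each locus, the FPKM of a single read from its low values in at least 3 libraries. Between 72.2% and 98.6% of held-out low values per library lay within 0.1 of a whole read, against 20% by chance. A unit was found for 7 members, not for PAL4. Recovered loci held 12496 to 620448 reads per library and 5.14% to 36.2% of the FPKM, so full depth is unknown. Floors of 3 reads cover counting error only. Both fits were tested on simulated data.

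Each test was repeated with a pseudocount of 0.1, no filter, quantile scaling, a block for the replicate number, no trend, the 2 compared forms alone and each library left out. Voom in limma on recovered reads (loci with at least 10 reads) and Erysimum without form P were added after seeing the data. The members, gene lists and alternatives were chosen with earlier results of these data known. In contrasts with a called member, the called gene with the largest rise and fall in each list is named, as are the 5 loci most like C4H and PAL1, of which unnamed ones are limited to 2. No annotation with coordinates was used here, and no sequence is shown.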

Additional observations from a re-analysis of the deposited data

How the results depend on the processing

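Of 11 calls, 10 kept their direction in each of the 10 to 15 alternatives run for them. The exception was 4CL3 in Matthiola W against DP, -0.06 with quantile scaling, and the uncalled W against RB difference of 4CL3 also turned, to -0.95. In every called pair the libraries of the compared forms do not overlap. Leaving out a library, or changing the pseudocount, filter, trend, block or forms fitted, therefore could not turn a called direction. Quantile scaling and voom alone could, so the kept directions are no measure of robustness. Counts of called members moved as follows, and the cause was not tested. Matthiola had 7, against 4 with quantile scaling, 1 without a variance trend, 3 with the 2 compared forms alone and 15 (of 42 tested, in place of 48) with voom on recovered reads. Over all loci, 2.15% of tests were called, against 1.65%, 1.12%, 0.754% and 10.2%. Leaving out each library gave 1 to 8. Raphanus had 3, against 6 with a pseudocount of 0.1, 1 with quantile scaling, 5 with the 2 compared forms alone and 6 with voom, and 3 to 6 with libraries left out. Over all loci, 7.11% of tests were called, against 11.6%, 3.03%, 5.92% and 20.3%. Orychophragmus had 1, against 0 without a trend and 2 with voom, and 0 to 2 with libraries left out. Malcolmia had 0, against 1 with voom, and 0 to 1 with libraries left out. Erysimum had 0, and 0 to 4 with libraries left out. Iberis and Lobularia had 0 in each alternative run. The number of all loci called also moved widely between fits with a library left out. Counts of called members from those fits are thus not results about the members. Of 133 tested differences, 42 changed sign with some library left out. Among those called in any setting they were PAL4 in Erysimum Y against P (-0.71 without P library 2 and 8.28 without P library 1), PAL1 in Malcolmia (-0.15 without LP library 1 and 1.86 without LP library 2) and PAL1 in Raphanus W against LP (0.33 without W library 2 and -4.53 without W library 1). Where a form was left with 1 library, it was assumed to vary like the others.

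With the replicate number as a block, Matthiola (DP, LP and RB alone, since the W columns carry no number) and Raphanus had 0 calls, and Orychophragmus kept 1. The numbers do not pair the samples: correlations of same-numbered deviations ran from -0.047 to 0.374 over 16 pairs of forms. Depth limits Raphanus LP and W, where 1 read stood for 7.78 to 10.4 FPKM, and Lobularia, where 12496 to 16361 reads were recovered.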
